A study of Homo sapiens with 5 samples.

Results

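The genes described here are 38 genes of the epithelial-mesenchymal transition, the extracellular matrix and transforming growth factor beta (TGF-beta) signalling, chosen by name and placed by their GRCh38 spans among 20037 protein-coding genes. They were read in CUT&Tag peak lists of 786-O, a cell line established from a human renal carcinoma. In CUT&Tag, transposase is tethered to an antibody, so that sequencing adapters are inserted into chromatin near the antibody's target. Histone H4 lactylated at lysine 12 (H4K12la), a mark in which lactate-derived acyl groups are attached to the histone, was profiled in 2 libraries of untreated control cells and in 2 libraries of cells given 10 µM dexamethasone, a synthetic glucocorticoid, for 48 h. The glucocorticoid receptor (GR), the transcription factor that dexamethasone activates, was profiled in 1 library of dexamethasone-treated cells, with no untreated GR library used here. All 5 libraries come from the same cell line and carry the same batch label, and nothing in the labels says that replicates were separate cultures, so their spread may be technical.

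In the epithelial-mesenchymal transition, epithelial cells loosen cell contacts, replace E-cadherin by N-cadherin, build up vimentin filaments and deposit and remodel matrix. SNAI, ZEB and TWIST transcription factors repress epithelial genes, and TGF-beta ligands, acting through their receptors and SMAD proteins, induce both these factors and many matrix genes. Clear cell renal carcinoma cells are known for expressing vimentin, and glucocorticoids are known to alter matrix and TGF-beta gene expression in several tissues.

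The members were sorted into 6 transcription factor genes, 8 adhesion and cytoskeleton genes, 7 collagen genes, 6 genes of other matrix proteins, 5 protease and inhibitor genes, and 6 TGF-beta signalling genes. A peak was counted at a gene's end when it overlapped the 1 kb on either side of the lower or upper end of the gene span by at least 1 bp. Each value given for a gene is the summit height of its highest end peak, a whole number the authors deposited for each peak that is not scaled to sequencing depth. Read depth is unknown for every library. The lists held 126594 and 112409 H4K12la peaks in control replicates 1 and 2, 80721 and 67582 in dexamethasone replicates 1 and 2, and 8065 for GR. Median heights were 24, 26, 23 and 24. Of 8 kidney tubule and clear cell carcinoma markers, 5 had an end peak in each control list. The numbers were 3 and 4 of 5 blood, 2 and 3 of 5 endothelial and 1 of 5 fibroblast markers. PAX8, a kidney lineage factor, was the only kidney marker in all 4 lists (140 and 119 in control, 27 and 18 with dexamethasone). PAX2 had no end peak in any list. CDH6 (27 in dexamethasone replicate 2) and CA9 (29 and 26 with dexamethasone) had none in control. The fibroblast marker PDGFRB had 140 and 142 in control and 40 and 36 with dexamethasone. CA9 and PDGFRB each share a window with another gene. End peaks were thus listed for markers of each of these tissues, and a peak is no measure of expression.

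The annotated start site and strand were given for 25 of the 38 genes. The 250 bases before the start are shown for 6 of them, because H4K12la or GR peaks lay over these starts and the genes differ in what remained under dexamethasone. SPARC and ITGAV kept a start peak in all 4 H4K12la lists and had a GR peak over these bases. TGFB2 and CCN2 also had a GR peak there, whereas FN1 and THBS1 had H4K12la at the start only in the control lists and no GR peak listed. The sequences are from RefSeq (GRCh38.p14), 5′ to 3′ on the strand of the gene, and capitals mark matches to the letters GGAATG (TEAD factors) and CAGACA (SMAD factors) on either strand:
SPARC (chr5:151686916-151687165, minus strand): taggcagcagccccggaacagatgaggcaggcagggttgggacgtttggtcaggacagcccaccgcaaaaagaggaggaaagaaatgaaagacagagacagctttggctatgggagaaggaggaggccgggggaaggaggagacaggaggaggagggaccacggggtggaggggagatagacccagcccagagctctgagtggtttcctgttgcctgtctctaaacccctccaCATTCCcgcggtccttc
ITGAV (chr2:186589806-186590055, plus strand): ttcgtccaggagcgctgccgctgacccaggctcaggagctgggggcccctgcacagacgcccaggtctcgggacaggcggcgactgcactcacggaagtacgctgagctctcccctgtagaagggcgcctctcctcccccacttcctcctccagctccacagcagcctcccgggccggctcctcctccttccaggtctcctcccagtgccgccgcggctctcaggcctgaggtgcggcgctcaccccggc
TGFB2 (chr1:218345086-218345335, plus strand): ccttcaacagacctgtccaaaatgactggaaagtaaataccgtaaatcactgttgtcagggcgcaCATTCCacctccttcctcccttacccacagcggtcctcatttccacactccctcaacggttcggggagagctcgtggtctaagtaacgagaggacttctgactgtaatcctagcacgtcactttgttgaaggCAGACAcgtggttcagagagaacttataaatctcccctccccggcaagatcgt
CCN2 (chr6:131951373-131951622, minus strand): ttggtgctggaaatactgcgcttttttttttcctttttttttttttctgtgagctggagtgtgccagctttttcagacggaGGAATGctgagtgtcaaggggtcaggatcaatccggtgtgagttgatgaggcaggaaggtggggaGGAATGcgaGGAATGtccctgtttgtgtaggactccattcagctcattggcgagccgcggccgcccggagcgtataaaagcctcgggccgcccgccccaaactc
FN1 (chr2:215436069-215436318, minus strand): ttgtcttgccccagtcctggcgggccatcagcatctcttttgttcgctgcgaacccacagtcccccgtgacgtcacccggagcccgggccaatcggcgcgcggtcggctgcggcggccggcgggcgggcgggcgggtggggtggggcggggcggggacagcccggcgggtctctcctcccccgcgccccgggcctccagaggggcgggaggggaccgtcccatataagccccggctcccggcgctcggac
THBS1 (chr15:39580829-39581078, plus strand): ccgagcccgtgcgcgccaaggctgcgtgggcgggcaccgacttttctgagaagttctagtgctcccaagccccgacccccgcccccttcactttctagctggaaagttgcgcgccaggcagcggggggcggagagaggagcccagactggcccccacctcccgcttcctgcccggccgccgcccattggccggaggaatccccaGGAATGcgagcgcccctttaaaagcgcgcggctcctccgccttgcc

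The letters GGAATG occurred in 6 of 25 member promoters (SPARC, THBS1, TGFB2, ITGA5, ITGB1 and CCN2) and in 10% of 13820 promoters of the same length. CCN2, a known target of YAP and TEAD factors, held 3 matches. The letters CAGACA occurred in the promoters of TGFB2 and ITGA5 and in 11.4% of all promoters. CACCTG, an E-box read by SNAI and ZEB factors, was found in the promoters of ZEB1 and TGFBR1 and in 16.8% of all, searched on both strands like the others. The palindromic glucocorticoid response element, the AP-1 letters TGANTCA and the SMAD palindrome GTCTAGAC were not in any of the 25 windows. Of all promoters, 0.232% held the response element, 5.04% the AP-1 letters and 0.224% the palindrome. No motif searched overlapped another in the sequences shown. A match is a description of these letters and not a binding site.

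End peaks were listed for fewer members with dexamethasone than without. Of the 38 genes, 30 and 28 had an end peak in control replicates 1 and 2, and 17 and 10 in dexamethasone replicates 1 and 2. This is 29.0 ± 1.41 (SD, n = 2) against 13.5 ± 4.95 (SD, n = 2), a ratio of 0.466, and the groups did not overlap. Over all 20037 genes the shares were 63.4% and 63.3% in control and 39.7% and 33.1% with dexamethasone, a ratio of 0.575. With 2 libraries a group the smallest two-sided p an exact permutation test can give is 0.333, and no p is given for these genes. A lower height or a missing peak can come from fewer cells carrying the mark or from less mark per cell, which cannot be told apart. The dexamethasone lists are also the shorter ones over the whole genome, and the part of read depth in these counts was not tested.

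**Figure D1:**
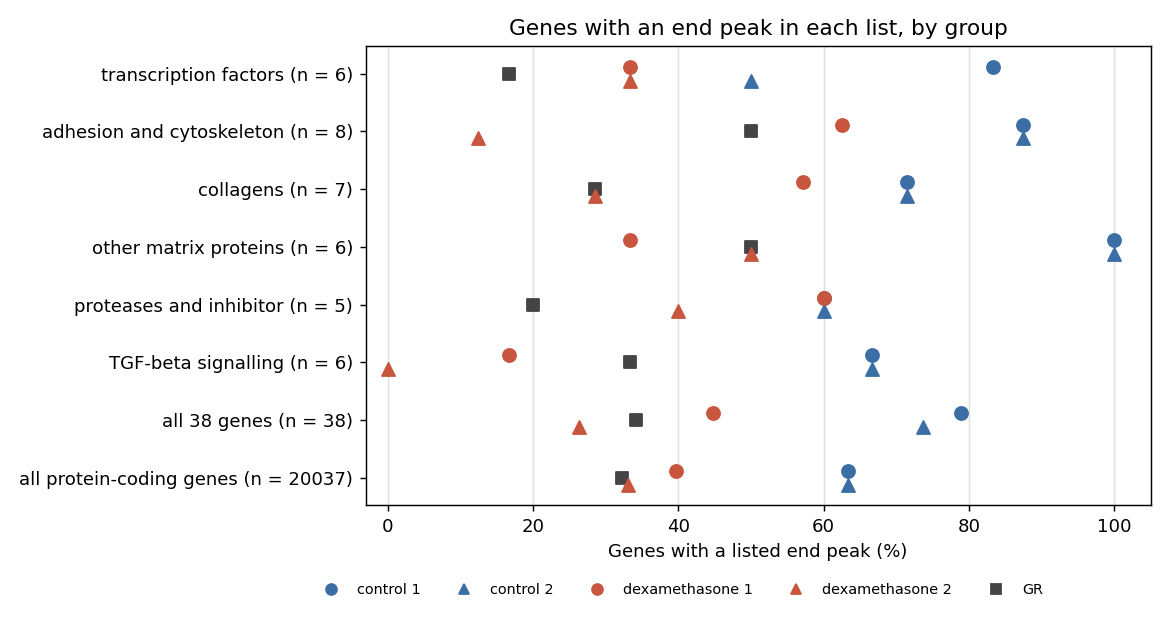
Share of genes with a listed end peak (x axis, %) in each group of members, in all 38 genes and in all protein-coding genes, for the 2 control (blue) and 2 dexamethasone (red) H4K12la lists (circles replicate 1, triangles replicate 2) and the GR list (grey squares). TGF-beta signalling genes had 66.7% in both control lists against 16.7% and 0% with dexamethasone, while the protease group had 60% in both control lists and 60% and 40% with dexamethasone.

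Both control lists held an end peak for 28 members. Of these, 11 had none in either dexamethasone list (called control-only below), 11 had one in 1 dexamethasone list, and 6 had one in both. Of all 20037 genes, 11800 had an end peak in both control lists. Among these 11800, 3759 were control-only, 4737 were in both dexamethasone lists, and the rest were in 1. Control-only genes made up 28.9% of the 38 members and 18.8% of all genes. Among genes with an end peak in both control lists the shares were 39.3% of 28 members and 31.9% of 11800 genes. Where the mean control height was 40 or more, 8 of 18 members were control-only (25.2% of all such genes), and under 40, 3 of 10 (46.1%). No member was dexamethasone-only, that is, in both dexamethasone lists and neither control list, a pattern of 0.764% of all genes. All 4 lists held 6 members (23.6% of all genes), and in 3 of these 6 each dexamethasone height was under each control height, against 82.2% of all genes in the 4 lists. Dexamethasone replicate 1 held 9 of the 11 genes that were in just 1 dexamethasone list. Without that library 20 members were control-only, and without dexamethasone replicate 2, 15 members were in all the lists left.

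Of the 11 control-only genes, 8 (FN1, COL1A1, THBS1, TGFBR1, TGFBR2, ITGA5, TIMP1 and CCN1) had no dexamethasone peak anywhere in the merged regions over their ends. In the other 3 a dexamethasone peak lay in the same region just beyond the 1 kb window. With windows of 2.5 kb, 6 of the 11 were still control-only.

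Among the transcription factor genes, the SNAI and ZEB genes had control peaks of 51 to 131 at an end, with lower or no values under dexamethasone. ZEB1 (chr10:31318417-31529804), a zinc finger repressor of E-cadherin, stood at 103 and 131 at its start in control replicates 1 and 2, at 22 in dexamethasone replicate 1, and had no peak in replicate 2. SNAI1 (chr20:49982980-49988886), which encodes Snail, had 83 and 88 in control and no end peak with dexamethasone. Dexamethasone peaks of 27 and 19 did lie in the same merged region, beyond the window, so that region was not without the mark. SNAI2, which encodes Slug, had 51 and 58 in control and 14 in dexamethasone replicate 2. In ZEB1, SNAI1 and SNAI2 each listed dexamethasone height was thus below both control heights. ZEB2 had an end peak only in control replicate 1 (63), and a region 2195 bp from its start had 71 and 72 in control and none with dexamethasone. TWIST1, a basic helix-loop-helix factor gene, differed from these, with 16 in control replicate 1, none in control replicate 2, and 19 and 20 with dexamethasone, and a peak of 14 in control replicate 2 lay in the same region beyond the window. TWIST2 had no end peak in any list.

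Among the adhesion and cytoskeleton genes, 7 of 8 had end peaks in both control lists. CDH1, the gene of E-cadherin, had no end peak in any list, and its highest region inside the gene (chr16:68760651-68762424) had heights of 37 and 42 in control and 16 and 15 with dexamethasone. CDH2, the gene of N-cadherin, had 43 and 74 at its start in control, 21 in dexamethasone replicate 1 and no end peak in replicate 2, where a peak of 19 lay in the same merged region beyond the window. VIM (chr10:17228241-17237593), which encodes vimentin, had 64 and 104 in control, 14 in dexamethasone replicate 1 and none in replicate 2. A low merged region at its far end had 17 and 22 in control and 13 and 16 with dexamethasone, in part beyond the window. At their starts both genes were thus higher in both control lists than in the dexamethasone list that held them.

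The integrin genes encode receptors that link cells to fibronectin, collagens and other matrix proteins. ITGAV (chr2:186590056-186680901), the integrin alpha V gene, kept an end peak in every H4K12la list, at 86 and 100 in control and 19 and 23 with dexamethasone, a ratio of the means of 0.226. ITGB1, the beta 1 gene, had 93 and 94 in control, 17 in dexamethasone replicate 1 and none in replicate 2. ITGA5, the alpha 5 gene, had 48 and 54 in control and no end peak with dexamethasone, while a region inside it (chr12:54411359-54413892) had 81 and 73 in control and 45 and 43 with dexamethasone. At the ends of these 3 genes no dexamethasone peak reached a control height. ACTA2, the smooth muscle actin gene, had 47 and 50 in control and 17 in dexamethasone replicate 1, and its annotated start lies inside FAS. TAGLN, the transgelin gene, was control-only (69 and 55), but a dexamethasone replicate 1 peak of 43 lay in an end region beyond the window, and TAGLN shares an end window with SIDT2.

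**Figure D2:**
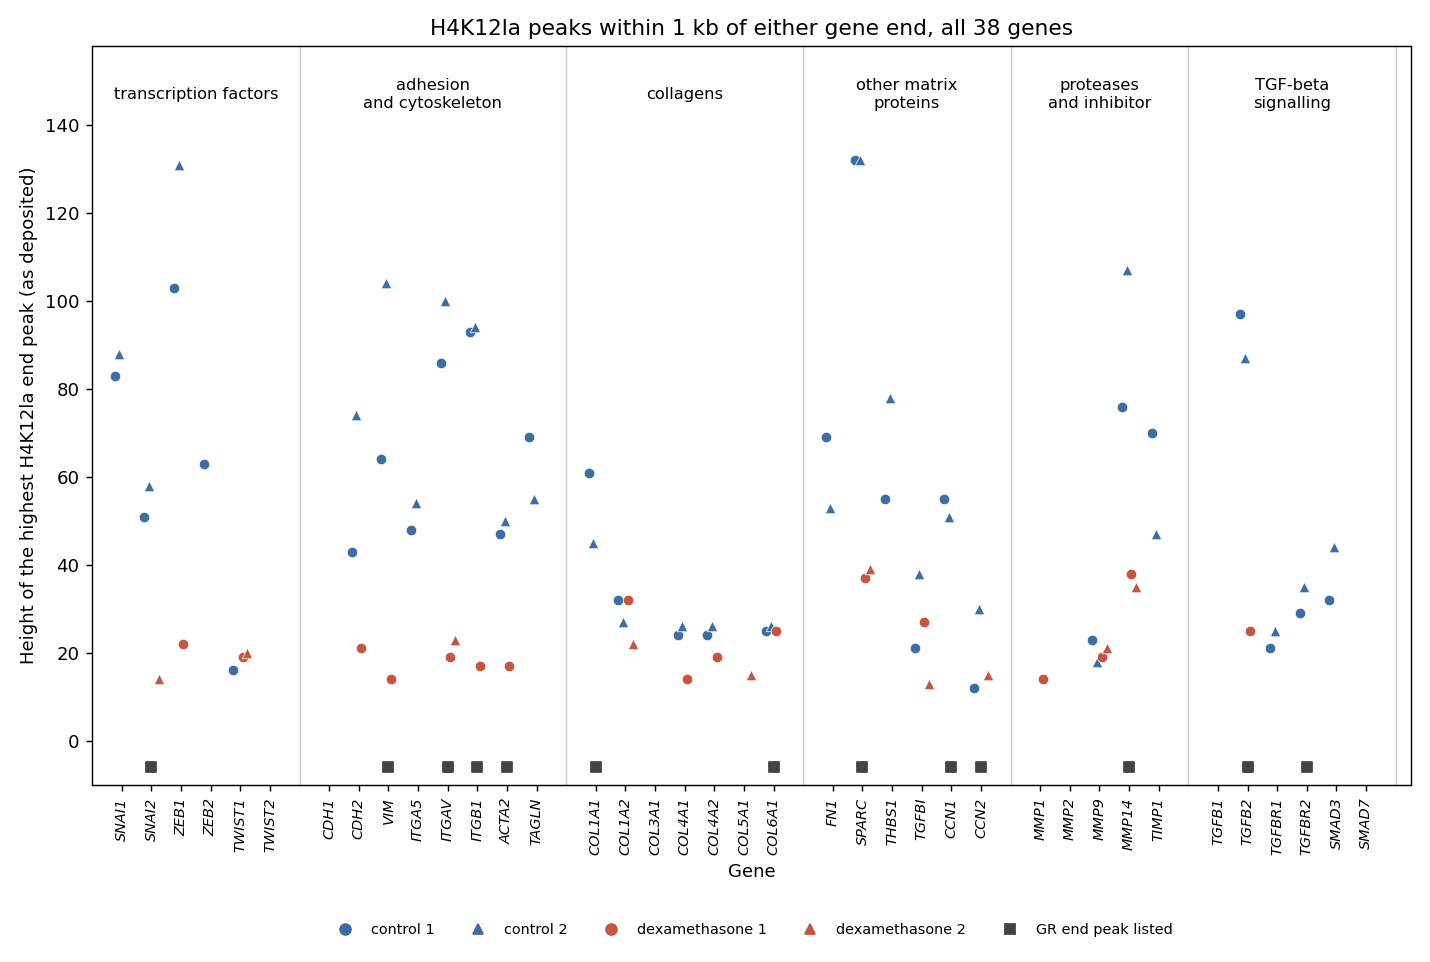
Height of the highest H4K12la end peak (y axis, as deposited, not scaled to depth) of each of the 38 genes (x axis), by group of genes, in the 2 control (blue) and 2 dexamethasone (red) lists, with a grey square where a GR end peak was listed. No point means that no end peak was listed. The dexamethasone points reach at most 38 and 39 in the 2 lists, while control points reach 132.

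The collagen genes had lower control peaks than the other groups, and 1 of the 5 with end peaks in both control lists had them in both dexamethasone lists. COL1A2, which encodes a chain of type I collagen, was present in all 4 lists, at 32 and 27 in control and 32 and 22 with dexamethasone, so the groups overlapped. COL1A1 (chr17:50184101-50201631), which encodes the partner chain, was control-only with 61 and 45. COL4A1 and COL4A2, whose products form basement membrane collagen, lie head to head and share 1 peak between their starts, which stood at 24 and 26 in control and at 14 in dexamethasone replicate 1. COL4A2 also had a peak of 19 at its far end in the latter list. COL6A1, a microfibrillar collagen gene, had 25 and 26 in control and 25 in dexamethasone replicate 1. These 2 loci had control heights at about the median of their lists. COL5A1 had an end peak of 15 in dexamethasone replicate 2 alone, and COL3A1 had no peak of any kind in its span in any list. The median height of the group's listed end peaks was 25 and 26 in control and 22 and 18.5 with dexamethasone.

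All 6 genes of other matrix proteins had end peaks in both control lists, and 2 and 3 of them in the dexamethasone lists. SPARC (chr5:151661096-151686915), which encodes osteonectin, a collagen-binding protein, had the highest control end peak of all 38 genes. Its heights were 132 and 132 in control and 37 and 39 with dexamethasone, a ratio of 0.288, and the dexamethasone peaks still ranked above 87.3% and 88% of their lists. FN1 (chr2:215360865-215436068), which encodes fibronectin, had 69 and 53 in control and no end peak with dexamethasone. Inside it 4 regions were in all 4 lists, with a median ratio of dexamethasone to control height of 0.813. Of these, 1 had 26 and 35 in control and 29 and 28 with dexamethasone, and another 41 and 39 against 17 and 19. THBS1 (chr15:39581079-39599466), the gene of the TGF-beta activator thrombospondin 1, had end peaks of 55 and 78, also in the control lists only. THBS1 shares a window with LOC124903470, which lies within 1 kb of this start region. CCN1 and CCN2 encode matricellular proteins induced by YAP and TGF-beta. CCN1 was control-only with 55 and 51, and CCN2 had 12 and 30 in control and 15 in dexamethasone replicate 2. The 12 was a peak at the far end, and the merged region near the start had 16 and 30 in control and 15 in dexamethasone replicate 2. TGFBI, a TGF-beta-induced matrix gene, was in all 4 lists (21, 38, 27 and 13), but the highest peaks lay at different ends of the gene.

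In the protease group, the dexamethasone lists held nearly as many genes as the control lists. MMP14 (chr14:22836585-22847758), the membrane-bound protease that activates MMP2, had a peak in each list, but the highest lay at different ends of the gene. At the start the window heights were 58 and 107 in control and 38 and 34 with dexamethasone, and the merged region there had 107 and 107 in control. Its start window is shared with MRPL52. MMP9, a gelatinase gene, had 23 and 18 in control and 19 and 21 with dexamethasone, which overlapped. TIMP1, a metalloproteinase inhibitor gene whose start lies inside SYN1, was control-only with 70 and 47. MMP1, a collagenase gene, had a peak of 14 in dexamethasone replicate 1 alone, and MMP2 had no end peak in any list.

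The TGF-beta signalling genes had end peaks for 4 of 6 members in both control lists, 1 in dexamethasone replicate 1 and 0 in replicate 2. TGFB2 (chr1:218345336-218444619), a TGF-beta ligand gene, had 97 and 87 in control and 25 in dexamethasone replicate 1. TGFBR2 (chr3:30606356-30694142), the receptor that binds the ligand first, had 29 and 35 in control alone. TGFBR1, the receptor kinase it activates, had 21 and 25 in control alone, and SMAD3, the transcription factor the receptors phosphorylate, had 32 and 44. For SMAD3 a dexamethasone replicate 2 peak of 17 lay in the same region beyond the window, and TGFBR2 shares its window with LOC105377015. TGFB1, whose window is shared with B9D2, and SMAD7, which encodes an inhibitor of the pathway, had no end peak in any list.

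Where the start was given, the peaks lay at the start rather than the far end of the gene. Of the 25 such members, 20 and 20 had a peak within 1 kb of the start in control, and 11 and 5 with dexamethasone. At the far end the numbers were 3 and 4, and 2 and 2. Over the 15843 genes with a given start, 57.7% and 59% had a start peak in control and 29.7% and 23.6% with dexamethasone. A far-end peak was listed for 28.3% and 26.3% in control and 17.5% and 15.5% with dexamethasone. Of the members, 44% and 20% had a start peak in the dexamethasone lists, above the share of all genes in replicate 1 and below it in replicate 2. Of the 19 members with a start peak in both control lists, 7 were control-only at the start, against 43.4% of 8564 genes.

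Inside the genes, away from their ends, the members held 235 and 230 H4K12la peaks in control and 137 and 114 with dexamethasone. The ratio was 0.540, against 0.392 for their end peaks, and over all genes the ratios were 0.632 inside and 0.471 at ends. Merging the 4 lists gave 166 regions inside members that both control lists held. Of these, 69 (41.6%) were in neither dexamethasone list, 41 in 1 and 56 in both. Over all genes, 35.2% of 49705 were in neither. Of the 56, 24 had both dexamethasone heights under both control heights, and 11 had both above. Over all genes this was 5548 and 5648 of 18893 regions. Another 7 regions inside members were in both dexamethasone and neither control list, 3 of them in COL5A1 (18 and 18, 17 and 17, and 24 and 26) and 2 in ZEB1 (15 and 19, and 19 and 21). These were 7 of 336 inside regions, and 2850 of 112954 over all genes had this pattern.

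The regions differed by how high they were in control. In regions inside members held by all 4 lists, the median ratio of dexamethasone to control height was 1.03 where the mean control height was under 40 (38 regions) and 0.469 where it was 40 or more (18 regions). Over all genes the ratios were 1.12 and 0.768. The split at 40 used the control values and was chosen after they were seen. Regions were therefore also split by control replicate 1 alone and read in the other libraries. This second split took regions at gene ends and inside genes together, so it covers more than the inside regions above. End regions of members in all 4 lists had a median ratio of 0.342. The 92 member regions of 40 or more in that list were found in control replicate 2 in 91.3% of cases at a median height of 54.5, and in the dexamethasone lists in 44.6% and 35.9% at medians of 26 and 27. Over all genes such regions were found in 94.8% at a median of 57 in control replicate 2, and in 58.3% and 52.5% at medians of 33 and 34 with dexamethasone. The 178 member regions under 40 were found in control replicate 2 in 66.3% of cases. The dexamethasone lists held 42.1% and 34.3% of them. Where listed, these regions had medians of 24.5 in control replicate 2 and 24 and 22 with dexamethasone. Over all genes, regions under 40 were found in 61.2% of cases in control replicate 2, and in 38.9% and 34.3% with dexamethasone. Regions of 1 gene are not independent of each other, and no test was made.

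**Figure D3:**
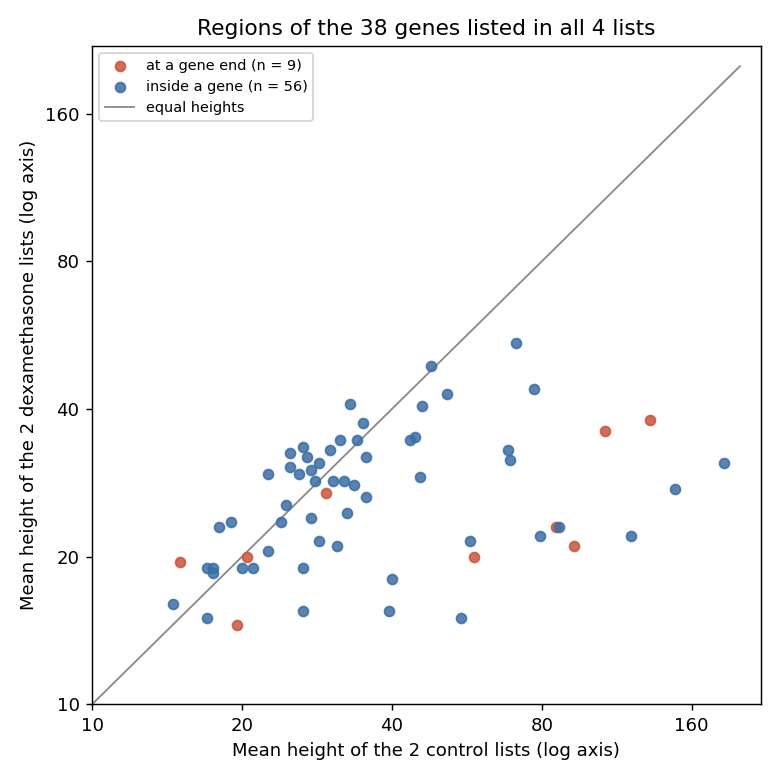
Mean height in the 2 control lists (x axis, log scale) against mean height in the 2 dexamethasone lists (y axis, log scale) of the regions of the 38 genes that all 4 lists held, at gene ends (red, 9 regions) and inside genes (blue, 56 regions), with the line of equal heights. Points of low control height lie around the line, and points of high control height lie below it.

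SMAD3 (chr15:67065602-67195169) had the highest region inside any member in control. That region, at chr15:67105269-67108423, had heights of 195 and 176 in control and 33 and 29 with dexamethasone, and the one at chr15:67124880-67128296, by an internal annotated start, had 140 and 156 against 29 and 26. Regions at chr15:67109403-67110711 (134 and 137) and chr15:67120360-67121910 (134 and 140) were in the control lists only. Of 20 regions inside SMAD3 in both control lists, 12 were in neither dexamethasone list, and the 6 in all 4 lists had a median ratio of 0.32. Over all genes, 35.2% of the inside regions that both control lists held were in neither dexamethasone list. Among members this was 7 of 7 in TGFB2, 5 of 6 in TGFBI, 11 of 19 in COL4A2 and 3 of 3 in MMP2. It was 0 of 4 in ITGB1 and 0 of 3 in TWIST2. TGFB2 also had 1 region in both dexamethasone lists alone (22 and 21). The genes of the repressors ZEB2 and ZEB1 had 3 of 13 and 3 of 11 regions that dexamethasone lists did not hold, and CDH2 7 of 23. In ZEB2 the 8 regions in all 4 lists had a median ratio of 1.11, with 25.5 as the median control height. These 8 leave out the ZEB2 regions that a dexamethasone list did not hold, such as those at chr2:144510089-144510987 (57 and 53 in control, 35 in dexamethasone replicate 2) and chr2:144456723-144457098 (46 and 32 in control alone).

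**Figure D4:**
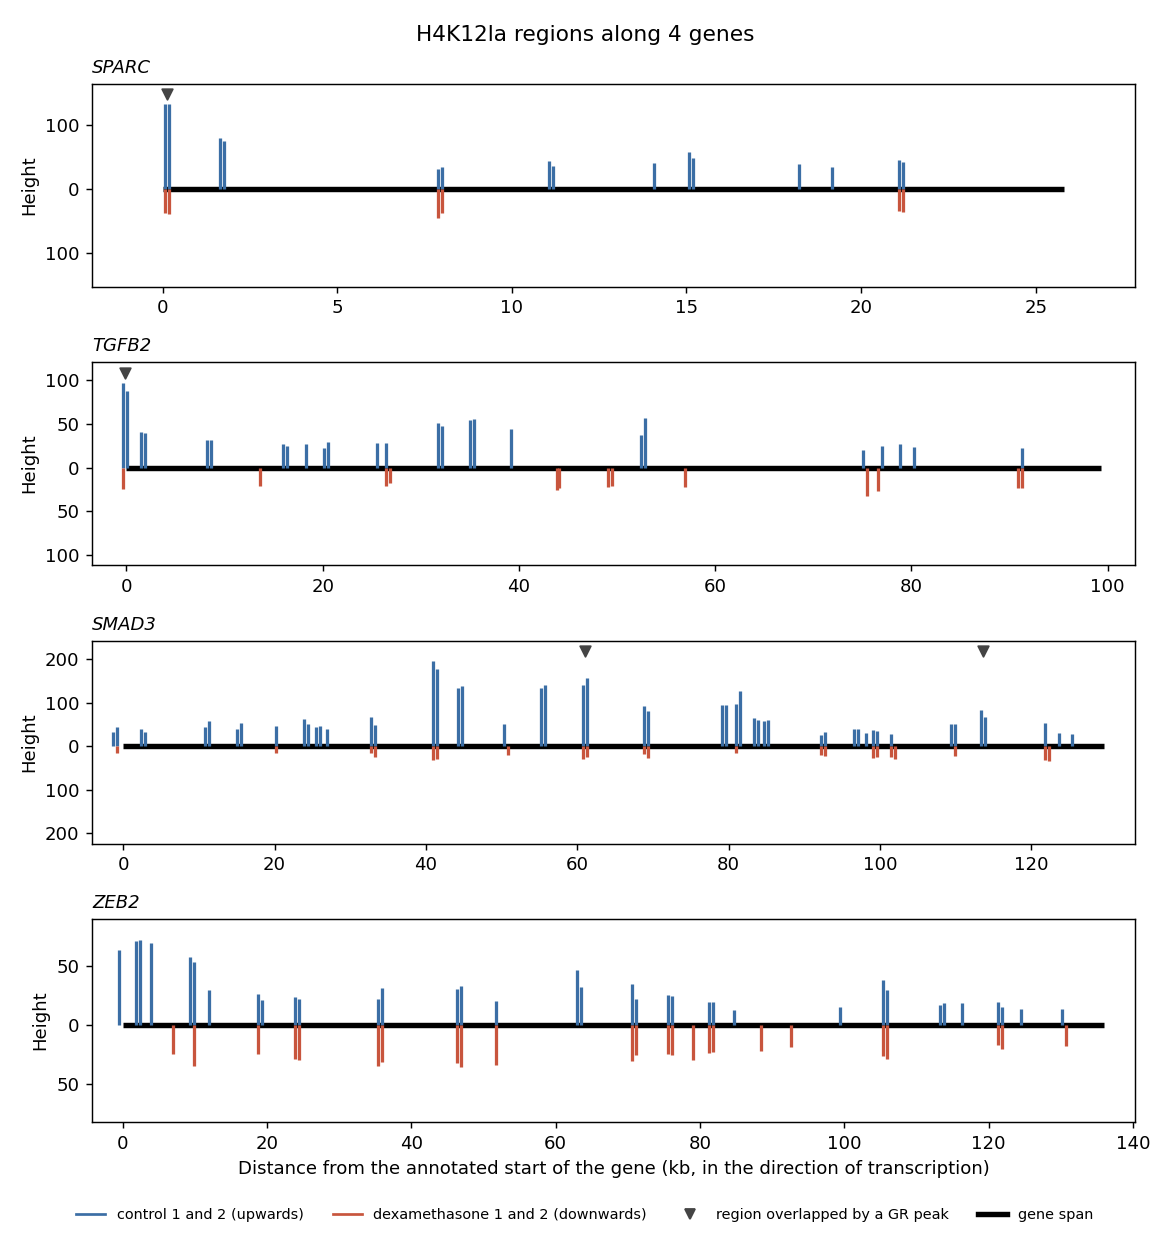
H4K12la regions along SPARC, TGFB2, SMAD3 and ZEB2, placed by distance from the annotated start (x axis, kb), with height (y axis, as deposited) upwards for the 2 control lists and downwards for the 2 dexamethasone lists, and a grey triangle over regions that a GR peak overlaps. High regions stand at the starts of SPARC and TGFB2 and inside SMAD3 in control, and ZEB2 has low bars in both directions along the gene, with higher control bars near its start.

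GR peaks were listed at an end of 13 of the 38 genes (34.2%), close to the 32.3% of all genes. All 13 had H4K12la end peaks in both control lists, as did 6057 of all 6462 genes with a GR end peak. Of genes with H4K12la end peaks in both control lists, 51.3% of 11800 had a GR end peak, against 13 of 28 members (46.4%). Where the start was given, 9 of 25 members (36%) had a GR peak at the start and 0 at the far end. Over the 15843 genes with a given start the shares were 33.3% and 2.35%. The longest GR end peaks of members lay within 1 kb of the starts of ITGAV (650 bp, chr2:186589566-186590215), TGFBR2 (508 bp, chr3:30606194-30606701), ACTA2 (474 bp) and SPARC (465 bp, chr5:151686698-151687162). Others lay at ends of VIM, ITGB1, MMP14, TGFB2, CCN1, CCN2, COL1A1, COL6A1 and SNAI2. The GR list gives no height, and its row numbers run to 15183 although it holds 8065 rows. A gene with no GR peak here is therefore not shown to lack GR.

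In and around the members there were 21 GR peaks, in 17 genes. Of these, 7 overlapped an H4K12la region of the control lists only, 5 a region of all 4 lists, 5 a region of another pattern, and 4 no region. Of all 8065 GR peaks the numbers were 2689, 2282, 2228 and 842 in the same order, so the members' split was near that of the whole list for control-only regions. The peaks without a region were those of CCN1 (2 peaks), CCN2 and COL6A1, and the nearest control H4K12la peaks were 112 and 53 bp away for CCN1 (chr1:85580580-85580877), 863 and 643 bp for CCN2 (chr6:131951209-131951654) and 773 and 833 bp for COL6A1. In CCN2 the GR peak thus lay over the start, and the nearest H4K12la region lay inside the gene. Of the 16 peaks in genes with given starts, 11 were centred within 500 bp of an annotated start, with no matching share over all GR peaks at hand. Among them were peaks at internal starts of SMAD3 (chr15:67125758-67126051), SMAD7 (chr18:48942723-48943066) and TGFBR1 (2 peaks). Over the 15843 genes with a given start, GR peaks were also listed at the start (33.3%) more than at the far end (2.35%). The 11 of 16 is therefore not read as particular to these genes. The SMAD7 peak overlapped an H4K12la region of 28 and 20 in control that neither dexamethasone list held.

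Of 32 further TGF-beta pathway genes, a list made by function, 13 were control-only and 8 were in all 4 lists, and 13 had a GR end peak, where the shares of all genes were 18.8%, 23.6% and 32.3%. SKI, a SMAD repressor gene, had the highest peaks by rank, at 129 and 123 in control and 78 and 78 with dexamethasone, and ENG, a TGF-beta co-receptor gene, had 90 and 87 against 59 and 54. SMAD4, the common partner SMAD gene, was control-only with 64 and 85, and ID3, which encodes an inhibitor of helix-loop-helix factors, with 61 and 43. SMURF1, a ubiquitin ligase gene that targets SMAD proteins, had 60 and 55 in control and 31 in dexamethasone replicate 1. Of 73 further matrix and epithelial genes, 13 were control-only, 1 (EPCAM, 13 and 20) was dexamethasone-only and 16 were in all 4 lists, and 8 had a GR end peak. The same shares of all genes apply here, with 0.764% for the dexamethasone-only pattern. The control-only and all-4 counts were near them, while GR end peaks were at 11% of these genes, below the 32.3% of all genes. Some epithelial genes of this list had control end peaks, among them the keratin genes KRT19 (130 and 116, with 27 and 27 under dexamethasone) and KRT8 (68 and 58, with 26 and 27). Others, among them OCLN, GRHL2, ESRP1 and DSP, had no end peak in any list, and EPCAM had none in control. The anchoring collagen gene COL7A1 (114 and 103), the urokinase receptor gene PLAUR (94 and 85), the epithelial splicing regulator gene ESRP2 (84 and 88) and the laminin gene LAMB3 (85 and 78) were control-only. ENG, SMURF1, COL7A1, ESRP2, LAMB3 and KRT8 each share a window with another gene, which for KRT8 is KRT18. COL18A1, the gene of a basement membrane collagen, had 55 and 51 in control and 50 and 54 with dexamethasone, which overlapped, and PLOD2, a collagen lysyl hydroxylase gene, had 69 in control replicate 2 alone.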

How the data were processed

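The tools fastp 0.19.6, Bowtie2 and deepTools and the build GRCh38 (hg38) are named in the submitters' processing notes. Which program called the peaks is not given in the sources used here. Each library has its own list. For H4K12la, the authors deposited a whole-number signal for each peak, read here as summit height, with lowest values of 9, 10, 11 and 12. For GR, the deposited columns hold positions and the peak length. Total reads are unknown, so no interval that needs depth is given.

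Restricting peaks to the autosomes, X and Y left out 2.02% to 2.51% of the H4K12la peaks. Gene spans came from a RefSeq table (GRCh38.p14), and start sites and promoter sequences from RefSeq promoters of 250 bases before and 50 after the start, read with strand. A list held a gene when a peak overlapped 1 kb around either span end by 1 bp. Overlapping H4K12la peaks (1 bp or more) from any list were joined into regions. The members, gene lists and rules were chosen with earlier results of these data known. For that reason the exact permutation p over libraries is not printed, other than the smallest it can reach. All members may be named, and of each further list the 6 genes with the highest mean percentile of height. One gene that this rule names is not reported here. EPCAM, the single dexamethasone-only gene of its list, KRT19, KRT8, OCLN, GRHL2, ESRP1 and DSP were chosen after their values were seen. So were the regions inside genes that are named, and the markers PAX2, CDH6, CA9 and PDGFRB. The shared replicate numbers have no stated link, and no model was fitted that a pairing could enter. The calls were tested on simulated data, where 200 of 200 planted control-only genes were found, with 0 false. This checks the counting only and says nothing of the unknown read depth of the real lists. Python 3.11.15, numpy 2.4.6, pandas 2.3.3 and matplotlib 3.10.9 were used.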

Additional observations from a re-analysis of the deposited data

How the results depend on the processing

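Of 68 recomputed values, 49 stayed the same and 19 moved. To stay the same, a count had to be within 1.5 times the reported one, and a difference had to keep its direction. Only the difference in the mean number of members with an end peak could turn direction, and it did not. Counts cannot turn direction. The count of control-only members (11) was 7 with windows of 2500 bp, 5 when peaks at any position in the gene were allowed, 7 of the 25 genes with a given start when only the start counted, and 17 with peaks of height 20 or more. Leaving out 1 library gave 11 to 20. The count in all 4 lists (6) was 11, 27, 3 and 3 in the same order, and 3 when the middle of the peak had to lie in the window, with 6 to 15 when 1 library was left out. Wider windows take in peaks that narrower ones miss, by construction. The count lower in both dexamethasone lists (3) was 8 with windows of 2500 bp and 22 with a peak anywhere in the gene, and 4 to 11 when 1 library was left out. Percentile ranks in place of heights gave 3. The count of dexamethasone-only members (0) was 2 with the 67582 highest peaks from each list and 0 to 1 when 1 library was left out. GR end peaks were at 9 to 17 members. The mean number of members with an end peak was lower with dexamethasone by a difference of -15.5, and -19 to -12 when 1 library was left out. Other settings gave -20.5 to -6.5. With the replicate number as a block (a paired difference) the value was -15.5, where the smallest possible p is 0.5. Why the counts moved was not tested otherwise.

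Heights are not scaled to depth, and read depth is not known. The dexamethasone lists are shorter, and replicate 2 is the shortest.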
